A study of Mus musculus with 10 samples.

Results

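The cytosolic ribosomal protein genes encode the proteins of the ribosome outside mitochondria. They were taken by symbol: Rpl or Rps followed by a number and at most one of the letters a, x and l, together with Rplp0, Rplp1, Rplp2 and Rpsa. The rule found 81 of the 23238 gene symbols shared by the count files of all 10 libraries. Of these, 43 are large subunit genes, 30 small subunit genes (Rpsa included), 3 genes of the acidic stalk and 5 paralogues (Rpl3l, Rpl10l, Rpl39l, Rps27l and Rps4l). The rule used names only, no measured value. It leaves out a few true ribosomal protein genes with other names, such as Fau, Rps3a1 and Gnb2l1, which are described separately. Of the 81 genes, 79 passed the filter on low counts and were tested. Rpl10l and Rpl3l did not pass.

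The libraries hold RNA of endothelial cells purified from orthotopic high-grade gliomas, grown in C57BL/6 mice from injected GL26l glioma cells. Sox7 and Sox17 are SoxF transcription factors of blood vessel endothelium. Floxed Sox7 or Sox17 alleles were combined with Cdh5(BAC)-CreERT2, a tamoxifen-dependent recombinase under control of the VE-cadherin gene, and the experimental mice received 20 mg/kg tamoxifen into the peritoneum. The arms had separate controls: 2 Sox7 control and 2 Sox7-deficient (ECKO) libraries, and 3 Sox17 control and 3 Sox17-deficient (ECKO) libraries. A control and an ECKO library of one number form a set, 5 sets in all. The sources used here give neither genotype nor tamoxifen treatment of the controls, nor the age of the mice or the number of animals per library. Deletion and tamoxifen therefore cannot be told apart, and p-values measure only the spread between these libraries.

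Each ribosome joins a small subunit, which reads the mRNA, to a large subunit, which forms the peptide bond, and the stalk proteins of the large subunit recruit elongation factors. Most ribosomal proteins are needed in equal number, so their genes are known for being expressed together at high level in growing cells. Many of their mRNAs start with a C followed by further pyrimidines, the 5′ terminal oligopyrimidine (TOP) tract, through which mTORC1 and Larp1 regulate their translation and stability.

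The TOP tract is a sequence feature that the naming rule did not use, so the windows around annotated start sites are shown for some genes described below. RefSeq promoter entries (GRCm38.p6) were matched for 60 of the 81 genes. Each window has 15 bases before the start and 15 from it on, 5′ to 3′ on the gene's strand, and capitals mark its longest run of C and T. The run may lie anywhere in the window, and the annotated starts were not checked. A short run therefore does not show that an mRNA lacks a TOP tract. The first 5 genes have a run of 8 bases or more, and Rps2, Rps3 and Rps28 do not. Rps10 of the first kind and Rps2, Rps3 and Rps28 of the second are all among the genes with the smallest p in the Sox17 arm.
Rpl27a: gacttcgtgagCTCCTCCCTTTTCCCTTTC
Rpl15: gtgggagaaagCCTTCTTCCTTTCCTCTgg
Rpl13a: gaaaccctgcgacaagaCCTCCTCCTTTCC
Rps10: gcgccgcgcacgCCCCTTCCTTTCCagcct
Rplp2: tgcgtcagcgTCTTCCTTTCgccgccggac
Rps2: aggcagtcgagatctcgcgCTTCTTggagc
Rps3: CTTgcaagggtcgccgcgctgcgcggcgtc
Rps28: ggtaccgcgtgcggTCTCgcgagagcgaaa
The windows lie at chr7:109519180-109519209 (plus strand) for Rpl27a, chr14:18270972-18271001 (minus) for Rpl15, chr7:45128731-45128760 (minus) for Rpl13a and chr17:27635230-27635259 (minus) for Rps10. Those of the other genes lie at chr7:141447636-141447665 (plus) for Rplp2, chr17:24720048-24720077 (plus) for Rps2, chr7:99483695-99483724 (minus) for Rps3 and chr17:33824548-33824577 (minus) for Rps28. The longest run is 19 bases in Rpl27a, 17 in Rpl15, 13 in Rpl13a and in Rps10, 10 in Rplp2, 6 in Rps2, 4 in Rps28 and 3 in Rps3.

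A run of at least 8 pyrimidines in this 30-base window was found in 26 of the 60 genes (43.3%), against 13.9% of all 27025 genes with a promoter entry. The letters CTTTCC, searched on both strands of the 300-base promoter, were in 53.3% of the ribosomal protein genes and 29.3% of all. Within 30 bases of the start and on the gene's own strand, these letters were in 20% and 3.40%. The ETS-type letters CCGGAAG were in 41.7% of the ribosomal protein promoters and 9.93% of all, and the GC box GGGCGG in 60% and 38.2%. The E-box CACGTG (10% against 8.09%) and AAGATGG, the core of the YY1 site (15% against 7.28%), were rarer, and TATAAA was in 10% against 15.7%. Apart from the run of pyrimidines and the search within 30 bases of the start, all were searched on both strands. Matches of different strings may overlap, and a match of letters is not a measured binding site.

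Library depth differed widely between the samples, as did the ribosomal RNA precursor. Total counts ran from 2082305 in Sox17 control 1 to 35068802 in Sox17 ECKO 2, with the other 8 libraries between 6675524 and 16803284. The precursor Rn45s took 3.93% to 28.8% of the counts, and no other measure of RNA quality was used. Sox7 stood at 23.1 and 5.90 CPM in the Sox7 controls and 0.577 and 0.664 in Sox7 ECKO. Sox17 stood at 174, 90.1 and 93.4 CPM in the Sox17 controls and 1.93, 1.07 and 6.70 in Sox17 ECKO. None of 20 pan-endothelial genes was at 0 in any library. The summed level of 16 macrophage and microglia genes was 1272 CPM in Sox7 control 1 and 21404 in Sox7 ECKO 1, against 194 to 470 in the other Sox7 libraries and 30.9 to 818 in the Sox17 arm, where 11 of the 16 were at 0 in control 1 and 10 in ECKO 1. CPM here means counts-per-million of the library size after TMM scaling, a correction for differences in composition. The 3′ tag protocol gives one tag per transcript whatever its length, so CPM needs no division by length, but reads of genes with near-identical copies could have been split, and levels of such genes are uncertain.

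The ribosomal protein genes were among the more abundant transcripts, but their levels covered a wide range. The 81 genes together gave 1.56% to 2.76% of all counts of a library. The median gene stood at 151 CPM (mean over 10 libraries), against 18.6 CPM for all 13040 genes tested. Of the 81 genes, 55 exceeded 100 CPM and 9 stayed below 50 CPM. For the median tested ribosomal protein gene, the highest of the 10 libraries was 3.06 times the lowest.

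Rplp1, one of the stalk proteins, had the highest mean over the 10 libraries, at 1539 CPM. It was the highest gene in 5 libraries, all 4 of the Sox7 arm and Sox17 control 1, while Rps9 led in 3 libraries of the Sox17 arm and Rps3 and Rps20 in 1 each. It stood at 1737 ± 444 CPM in Sox7 control (SD, n = 2), 2169 ± 48.6 in Sox7 ECKO (n = 2), 1257 ± 232 in Sox17 control (n = 3) and 1268 ± 151 in Sox17 ECKO (n = 3). By mean over 10 libraries, next came the small subunit genes Rps9 (1154 CPM), Rps14 (1125 CPM), known for its loss in the 5q- syndrome, and Rps20 (1037 CPM). The large subunit genes Rpl22 (927 CPM), Rpl13a (862 CPM) and Rpl8 (648 CPM) and the small subunit gene Rps3 (820 CPM), which lines the mRNA entry channel, completed the highest 8. These 8 genes together held 30.7% to 43.6% of the summed level of the 81 genes in a library. Neighbours in this order did not differ beyond their spread: Rps9 alone ranged from 525 to 1991 CPM over the libraries.

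The other stalk genes, Rplp2 and Rplp0, stood at 637 and 384 CPM. Rplp2 was at 155 CPM in Sox17 control 1 and at 492 to 1067 in the other 9 libraries. Rpsa, a small subunit gene that also encodes the laminin receptor precursor, was at 153 CPM. Rpl5 (204 CPM) and Rpl11 (90.6 CPM), which bind Mdm2 together with 5S ribosomal RNA, and Rps6 (109 CPM), the substrate of S6 kinase, were not among the highest.

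**Figure D1:**
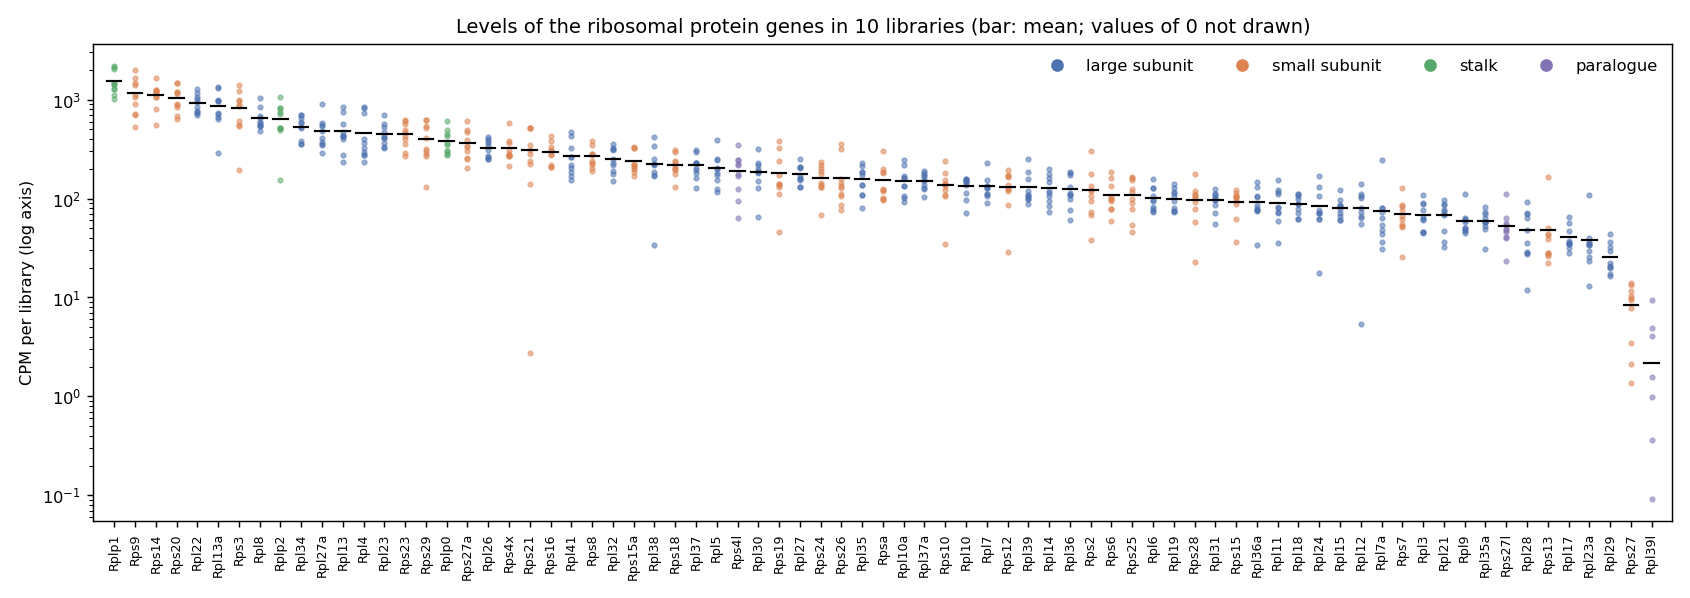
CPM of the ribosomal protein genes, a few of them left out, on a log axis, ordered by their mean over 10 libraries (black bar). Each point is a library, colours mark large subunit, small subunit, stalk and paralogue genes, and values of 0 are not drawn. Rplp1 has the highest mean, 1539 CPM, and single points far below their gene's other values, such as Rps21 at 2.72 CPM, come from Sox17 control 1.

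The lowest tested genes were the paralogue Rpl39l (2.16 CPM) and the small subunit gene Rps27 (8.34 CPM), followed by Rpl29 (25.9 CPM), Rpl23a (38.1 CPM), Rpl17 (40.5 CPM), Rps13 (47.6 CPM), Rpl28 (47.8 CPM) and the paralogue Rps27l (53.3 CPM), a p53 target. Rpl10l, a paralogue known from testis, had no count in any of the 10 libraries. Here 3 counts, the limit that a count of 0 allows, correspond to 0.0855 CPM in Sox17 ECKO 2 and 1.44 CPM in Sox17 control 1, before scaling. Rpl3l, the paralogue of heart and skeletal muscle, had 2 counts in Sox17 control 3 and 0 in the other libraries. Rps4l, in contrast, stood at 191 CPM, beside 322 CPM for Rps4x. Intervals and limits of this kind cover counting error only.

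Several low levels belong to genes whose transcript ends are shared with other loci, among which the counting could have split the reads. Windows of 50 bases in the last 300 bases of each transcript (GENCODE vM21) were looked up in all other annotated genes. Of the 81 genes, 63 shared at least 1 window and 18 shared none, and 24 shared over 80%. Leaving out paralogues, the median level was 216 CPM for genes that share none, 401 CPM for over 0 to 50%, 152 CPM for over 50 to 80% and 107 CPM for over 80%. Rps27 shared 100% of its windows, with 9 other genes. The row of its retrogene, Rps27rt, stood at 83.9 CPM, 10.1 times Rps27 itself.

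Rows of retrogenes and pseudogenes took a visible share of the signal in these files. There were 9 rows of this kind with names formed from those of 8 of the genes. Rps4l, counted above as a paralogue, is itself annotated as a transcribed processed pseudogene and is not among the 9. Rplp2-ps1 stood at 2149 CPM, above every ribosomal protein gene and 3.37 times Rplp2. Rpl14-ps1 (287 CPM) exceeded Rpl14 (127 CPM), and Rpl37rt (390 CPM) exceeded Rpl37 (216 CPM). In Sox17 control 1 the 9 rows together had 0.266 times the counts of the 81 genes, in Sox17 ECKO 1 0.0983 times, and in the other 8 libraries 0.160 to 0.204 times. So the ratio of copy rows to gene rows was not equal in both libraries of Sox17 set 1. Whether reads were split differently there was not tested. For Rplp2 the difference in that set, ECKO minus control on the log2(CPM + 1) scale, was 2.77, and for the sum of Rplp2 and Rplp2-ps1 it was 0.01. For Rpl14, which shares no end window, these values were 1.22 and −1.14. Single genes with a copy in the files are uncertain, whether or not an end window is shared.

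The comparison of ECKO with control asked what deletion of Sox7 or Sox17 changes in glioma endothelium. The summed level of the 81 genes was higher in ECKO than in the control of its set in 3 of 5 sets and almost equal in the other 2. In the Sox7 arm it was 17736 CPM in control 1 and 27558 in ECKO 1, then 19275 in control 2 and 19070 in ECKO 2. In the Sox17 arm it was 15204 and 25365 in set 1, 19112 and 26636 in set 2, and 21347 and 21687 in set 3 (control, then ECKO). All 3 Sox17 ECKO libraries lay above all 3 Sox17 controls, the lowest of them narrowly (21687 against 21347 CPM). The lower Sox7 ECKO library lay between the Sox7 controls. The group values were 18505 ± 1088 and 23314 ± 6002 CPM in Sox7 control and ECKO (SD, n = 2), and 18554 ± 3110 and 24563 ± 2570 in Sox17 control and ECKO (n = 3).

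Depth moved with part of this pattern. The ECKO library had 3.21 and 3.03 times the counts of its control in Sox17 sets 1 and 2, where the summed level was 1.67 and 1.39 times that of the control. It had 0.486 times the counts in Sox17 set 3, where the summed level was 1.02 times, and 0.699 times in Sox7 set 2, where it was 0.989 times. In Sox7 set 1 the depth was 0.968 times and the summed level 1.55 times, and there the ECKO library was the one with 21404 CPM of macrophage genes. The part of depth and of macrophage transcripts in these differences was not tested. In bulk samples of this kind, more cells of a type with many ribosomal transcripts and more such RNA per cell cannot be told apart.

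The share of raw counts had the same order of sets. It was 1.56% in control and 2.07% in ECKO of Sox7 set 1, and 2.16% and 2.12% in Sox7 set 2. In the Sox17 arm it was 1.61% and 2.76% in set 1, 2.09% and 2.69% in set 2, and 2.05% and 2.14% in set 3. With Rn45s left out of the total, the shares of Sox17 set 3 were 2.46% and 2.44%, so the Sox17 groups overlapped on this measure. Those of Sox7 set 1 were 2.00% and 2.91%. Large and small subunit genes kept a similar balance: the ratio of their summed CPM was 0.945 ± 0.0259 in Sox7 control and 0.936 ± 0.00027 in Sox7 ECKO (SD, n = 2), and 1.09 ± 0.133 and 1.00 ± 0.0515 in Sox17 control and ECKO (n = 3).

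**Figure D2:**
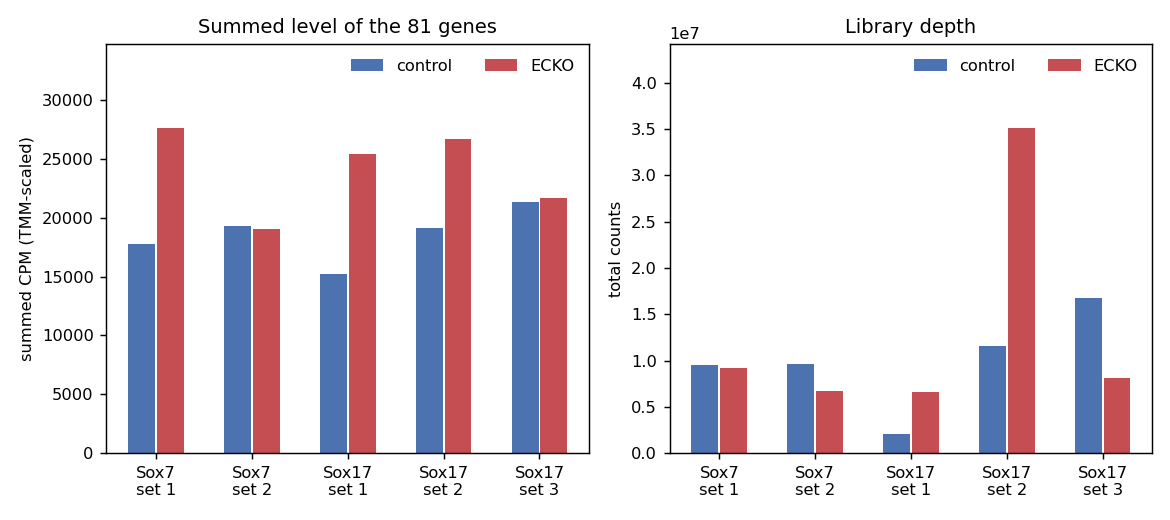
Left, summed CPM of the 81 genes in control (blue) and ECKO (red) of each set; right, total counts of the same libraries. The summed level is higher in ECKO in Sox7 set 1 and Sox17 sets 1 and 2, and the ECKO library is deeper than its control in Sox17 sets 1 and 2 only.

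Gene by gene, the sets fell into the same 2 kinds. Differences here are ECKO minus control on the log2(CPM + 1) scale. In Sox7 set 1, 74 of the 79 tested genes were higher in ECKO, with a median difference of 0.66 (all tested genes 0.03). In Sox7 set 2, 35 were higher and 44 lower, with a median of −0.06 (all genes 0).

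In Sox17 set 1, 62 were higher and 17 lower, with a median of 0.76 (all genes 0.12), and in Sox17 set 2, 71 were higher, with a median of 0.50 (all genes 0). In Sox17 set 3, 37 were higher and 42 lower, with a median of −0.04 (all genes −0.12). Sox17 set 1 had the widest spread, with an SD over the genes of 1.38, against 0.352 to 0.432 in the other 4 sets. Small subunit genes had a median of 1.59 in that set and large subunit genes 0.67, while in Sox17 set 2 both medians were 0.50.

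**Figure D3:**
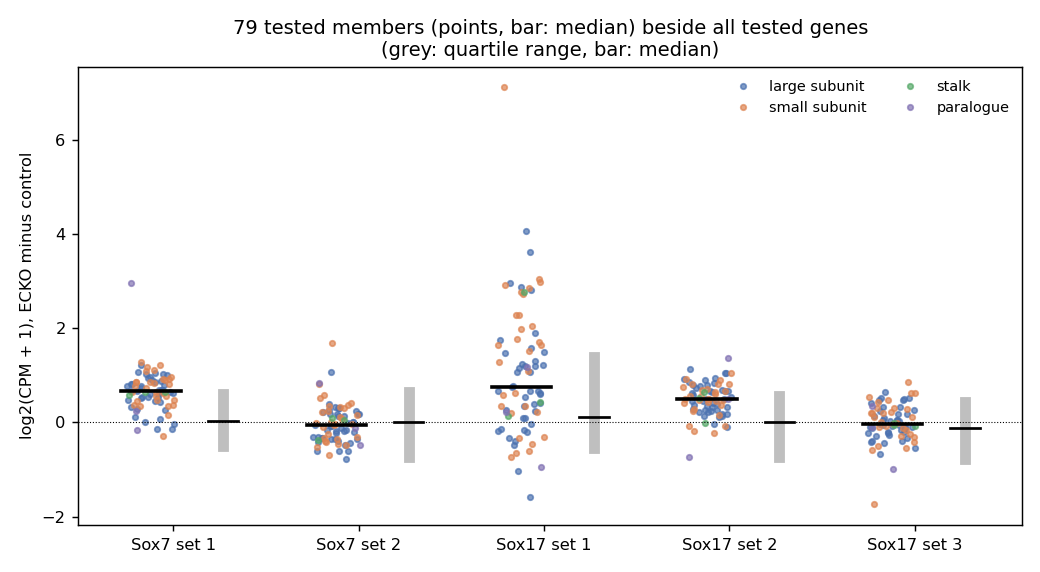
Difference of each of the 79 tested ribosomal protein genes in each set, ECKO minus control on the log2(CPM + 1) scale (points, coloured by role, black bar at the median), beside the quartile range and median of all 13040 genes tested (grey). The medians are 0.66 and −0.06 in Sox7 sets 1 and 2 and 0.76, 0.50 and −0.04 in Sox17 sets 1, 2 and 3.

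Sox17 control 1, the shallowest library, stood apart from the others in the balance among these genes. There, 30 of the 79 genes lay more than 1 log2 unit from their own median over the libraries, against 15 in Sox17 ECKO 1 and 0 to 4 elsewhere. Rps21 had 6 counts in that library (2.72 CPM) and 142 to 517 CPM in the others. Rpl12, a protein of the stalk base, had 12 counts (5.45 CPM) and 55.9 to 139 CPM in the others. Rpl7a went the other way, with 245 CPM there and at most 80.6 CPM in any other library. Part of this scatter was seen in all genes, whose SD around their medians was 1.47 log2 units in that library, against 1.24 for the ribosomal protein genes.

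**Figure D4:**
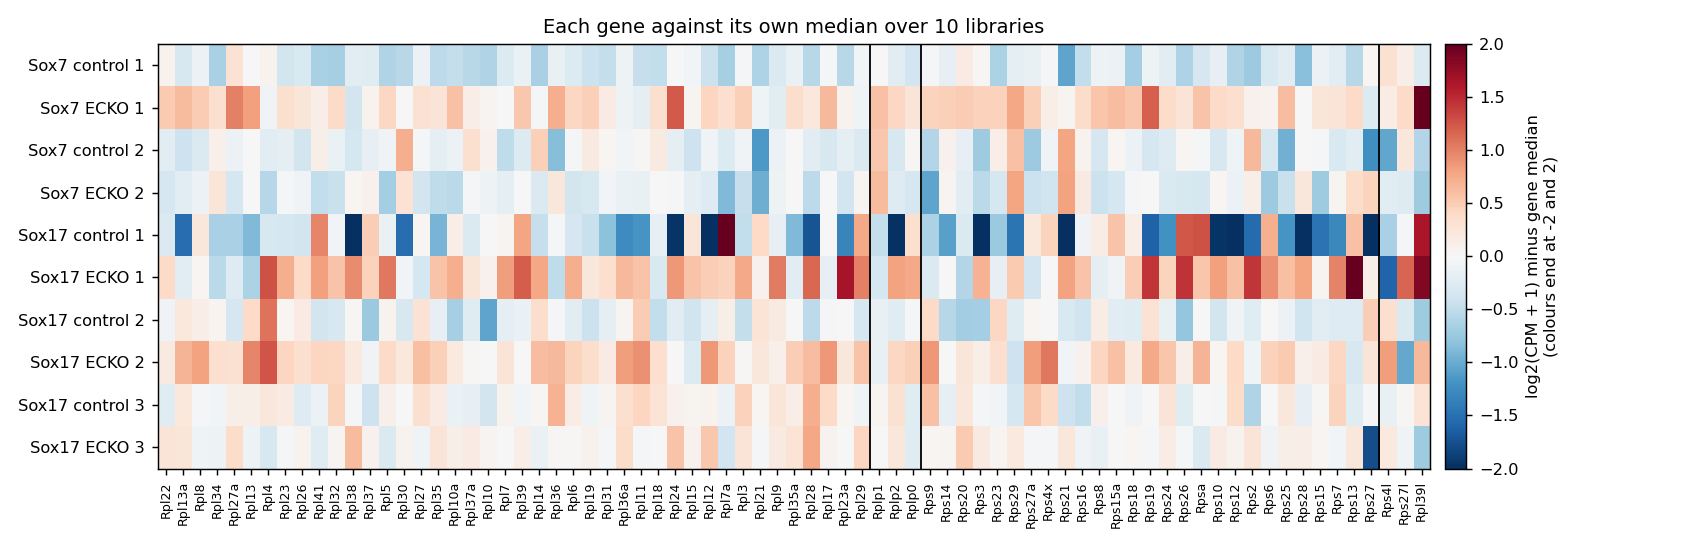
Tested ribosomal protein genes, a few of them left out (columns, by role and then by level), each against its own median over the 10 libraries (rows), as log2(CPM + 1), with colours ending at −2 and 2. Sox7 ECKO 1, Sox17 ECKO 1 and Sox17 ECKO 2 are mostly red, and Sox17 control 1 holds dark blue and dark red genes side by side.

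In the Sox7 arm no ribosomal protein gene passed the test. With edgeR's quasi-likelihood test, 0 of the 79 genes had an adjusted p under 0.05 and 0 an unadjusted p under 0.05, and DESeq2 and limma-voom likewise called 0, with 0 unadjusted. Over all genes edgeR called 0 of 13040 (0%). An unadjusted p under 0.05 was found for 195 of the 13040 with edgeR, 380 with DESeq2 and 520 with limma-voom. The fitted log2 fold change was above 0 for 71 of the 79 genes, with a median of 0.31 (all genes 0.04). That median was −0.01 without Sox7 ECKO 1, with an all-gene median of −0.26, and 0.18 without Sox7 control 1, with an all-gene median of 0.22. It was 0.56 without Sox7 ECKO 2. With library totals in place of TMM it was 0.16 (all genes −0.06), with 61 of 79 genes above 0.

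For most of the genes the direction was not the same in both Sox7 sets. Of the 79 genes, 31 (39.2%) were higher in ECKO in both sets, against 22.3% of all genes tested, which are not matched to them in level. Only Rpl4, a large subunit gene, was lower in both (1.27%, against 22.5% of all genes). For 21 genes (26.6%) both ECKO values lay above both control values, against 12.7% of all genes, and for 0 genes below them, against 12.8%. These counts hold Sox7 ECKO 1, the library with high macrophage genes.

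Among the 8 genes of smallest p with the same direction in both Sox7 sets were Rpl36, Rps19, Rps18, Rps25, Rpl24 and Rpl13a. Rpl36, a large subunit gene (chr17:56613416-56614243, plus strand), was at 99.6 and 60.9 CPM in the controls and 185 and 130 in ECKO. The groups did not overlap, and the log2 fold change was 0.97 (SE 0.52, unadjusted p = 0.0783 and adjusted p = 1 with edgeR). Without Sox7 control 1 the fold change was 1.34 on the log2 scale, and 0.66 without Sox7 control 2. Rpl36 shares 89.2% of its end windows with 11 other genes, so its reads could have been split.

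Rps19, the gene most often mutated in Diamond-Blackfan anaemia, was at 132 and 112 CPM in control and 324 and 141 in ECKO. The groups do not overlap, but the difference was 1.29 in set 1 and 0.33 in set 2, and the fold change of 0.93 on the log2 scale was 0.19 without Sox7 ECKO 1.

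Farthest above the median fold change of the Sox7 arm were, among others, Rpl39l, Rpl36, Rps19 and Rpl24. The value of Rpl39l (4.35) rests on 66 counts in Sox7 ECKO 1, against 3, 1 and 0 in the other Sox7 libraries, and it was −4.49 without that library. Farthest below were Rpl4, Rpl14, Rps27l, Rps15 and Rpl30. Rpl4 was at 363 and 294 CPM in control and 328 and 232 in ECKO, with a log2 fold change of −0.23 (SE 0.57). That difference was within the spread of the controls, and it was −0.01 without Sox7 ECKO 2, −0.10 without Sox7 control 1, −0.53 without Sox7 ECKO 1 and −0.38 without Sox7 control 2. The values of the other 4 lay between −0.19 and −0.08 and changed sign when 1 library was left out.

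In the Sox17 arm also, no ribosomal protein gene passed over all genes. With edgeR 0 of 79 had an adjusted p under 0.05 (0% of all 13040 genes did), and 7 (8.86%) had an unadjusted p under 0.05 and a higher level in ECKO, against 0.752% of all genes. In either direction, edgeR had 7 of the 79 genes and 459 of all 13040 at an unadjusted p under 0.05. These counts were 0 and 368 of 12899 without Sox17 ECKO 1, and 2 and 304 of 13001 without Sox17 control 1. They were 3 and 247 of 12791 without Sox17 control 2, and 13 and 565 of 12892 without Sox17 control 3. A fit of the Sox17 libraries alone had 2 and 281 of 11367, and the replicate block 12 and 511 of 13040. DESeq2 called 0 of the 79, with a smallest adjusted p of 0.641 and 9 at an unadjusted p under 0.05 (567 of all genes). Limma-voom called 0, with 4 unadjusted (672 of all genes). With limma-voom, without Sox17 control 1 and in the Sox17 libraries alone, the count was near the share of all genes. The fitted log2 fold change was above 0 for 70 of 79 genes, with a median of 0.44 (all genes 0.05), and it ran from 0.33 to 0.55 when any 1 of the 10 libraries was left out. Small subunit genes had a median of 0.61 and large subunit genes 0.44.

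Of the 79 genes, 31 (39.2%) were higher in ECKO in all 3 Sox17 sets, against 13.1% of all genes. All genes are not a background matched in level or spread. Their median SE in this arm was 0.97, against 0.42 for the 79 genes, which are also not independent of one another. Rpl21 alone was lower in all 3 (1.27%, against 11.5%). The smallest ECKO value exceeded the largest control value for 17 genes (21.5%), against 4.13% of all genes, and 0 genes lay wholly below, against 4.23%. Among the 17 genes were Rpl10, Rpl12, Rpl19, Rpl22, Rpl35, Rpl36a, Rpl37a, Rpl38, Rps2, Rps3, Rps10, Rps14, Rps15, Rps21 and Rps28. Without Sox17 set 1, 34 genes were higher in both other sets and 5 lower in both.

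Among the 8 genes of smallest p with the same direction in all Sox17 sets were Rps2, Rps3, Rps28, Rps10, Rpl38 and Rpl12. Rps2, a small subunit gene at the mRNA entry site (chr17:24718116-24721929, plus strand), was at 37.7, 94.0 and 73.3 CPM in the controls and 304, 105 and 133 in ECKO. All ECKO values were above all controls, the lowest of them narrowly. Its log2 fold change was 1.40 (SE 0.50, unadjusted p = 0.0117 and adjusted p = 1 with edgeR). Without Sox17 ECKO 1 the log2 fold change was 0.79. Rps2 shares 79.3% of its end windows with 51 other genes, the kind of gene whose reads are easily split.

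Rps3 (chr7:99477896-99483738, minus strand), none of whose end windows is shared, was at 193, 547 and 866 CPM in Sox17 control and 1413, 959 and 989 in ECKO. The ECKO values lay above the controls in every set, by 2.87, 0.81 and 0.19, and the log2 fold change of 1.06 (SE 0.49) was 0.65 without Sox17 control 1 and 1.60 without Sox17 control 3. Rpl38, a large subunit gene whose loss disturbs axial patterning in Tail-short mice, was at 33.6, 222 and 217 CPM in control and 422, 251 and 340 in ECKO. The first control was far below every other library, and the log2 fold change of 1.09 (SE 0.52) was 0.61 without it. Rps21 had the largest difference of the 79 genes in Sox17 set 1, 7.12, but its log2 fold change of 1.29 had an SE of 1.15 and was 0.71 without Sox17 control 1.

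Rps28 was at 22.7, 77.6 and 91.5 CPM in Sox17 control and 178, 110 and 112 in ECKO, with a log2 fold change of 1.05 (SE 0.48). Rps10, a site of ubiquitination on collided ribosomes, was at 34.5, 106 and 133 CPM in control and 242, 141 and 154 in ECKO, with a log2 fold change of 0.97 (SE 0.46). In both genes the first control was the lowest of the 10 libraries, and the fold changes were 0.64 and 0.57 on the log2 scale without it. Rpl12 (1.22, SE 0.63) behaved alike, at 0.69 without Sox17 control 1. Rps19 had an unadjusted p of 0.0476 with edgeR and a log2 fold change of 1.07 (SE 0.50), but it was at 141 and 137 CPM in control and ECKO of Sox17 set 3.

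Farthest above the median fold change of the Sox17 arm were Rps2, Rps21, Rpl12, Rpl23a and Rps13. Rpl23a (1.14) and Rps13 (1.13) were high in Sox17 ECKO 1 above all, at 109 and 167 CPM, and Rps13 was at −0.11 and Rpl23a at 0.42 in the fit without that library. Among those farthest below were Rpl7a (−0.81), Rpsa (−0.19), Rpl21 (−0.15) and Rpl36 (−0.12). Without Sox17 control 1 the values of Rpl7a and Rpsa were 0.22 and 0.36. Rpl21 was at 96.2, 87.8 and 74.8 CPM in control and 76.8, 85.5 and 70.3 in ECKO, differences smaller than the spread between controls.

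Between the arms, no ribosomal protein gene passed a test of the difference itself. In the contrast of the Sox7 difference minus the Sox17 difference, edgeR, DESeq2 and limma-voom each called 0 of the 79 genes. Each had 0 of them at an unadjusted p under 0.05, against 374 (edgeR), 477 (DESeq2) and 592 (limma-voom) of all 13040 genes. Of all genes, edgeR called 0 (0%). The smallest p was that of Rps2, with a log2 difference of −1.41 (SE 0.78, unadjusted p = 0.0862 and adjusted p = 0.99999 with edgeR). Rps2 was at 67.5 and 176 CPM in Sox7 control and 119 and 122 in Sox7 ECKO, within the range of the controls. Rpl36 went the other way, with 1.10 (SE 0.67). The median of the 79 genes was −0.15 (all genes 0.02) and turned to 0.02 without Sox7 control 2, 0.07 without Sox7 ECKO 2 and 0.01 without Sox17 ECKO 1. It was −0.40 without Sox7 ECKO 1, −0.25 without Sox7 control 1, −0.23 without Sox17 control 3 and −0.26 without Sox17 ECKO 3. With library totals it was −0.34, and with limma-voom −0.08.

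Over all 5 sets, ribosomal protein genes were higher in ECKO more often than genes at large, which are not matched to them in level. Each of the 79 was higher in at least 2 of the 5 sets: 13 in 2, 23 in 3, 31 in 4 and 12 (15.2%) in 5. Of all genes tested, 30.1% were higher in 2 sets, 27.7% in 3, 14.8% in 4 and 3.32% in 5, so the count of 23 in 3 sets was near the background. Among the 12 were Rpl13a, Rpl15, Rpl24, Rpl26, Rpl39, Rps3, Rps10, Rps16, Rps18, Rps21 and Rps28. None (0) was lower in all 5, against 3.34% of all genes. Rpl13a, known from the GAIT complex that silences inflammatory mRNAs, shares no end window, and its 5 differences were 0.95, 0.19, 1.31, 0.47 and 0.03 (Sox7 sets 1 and 2, then Sox17 sets 1 to 3). Rpl15 had small differences throughout, from 0.02 to 0.34. Rps10 and Rps28 were among the 3 genes whose ECKO and control groups did not overlap in either arm, against 0.529% of all genes.

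Several of the best-known genes turned direction between sets. Rpl5, Rpl11, Rps6, Rps4x and Rpl41, the smallest ribosomal protein, were lower in ECKO in both Sox7 set 2 and Sox17 set 3. Rpl5 was at 124 and 253 CPM in control and ECKO of Sox7 set 1 and at 181 and 118 in set 2, so that its direction turned between the sets. In the Sox17 arm it was at 172 and 394, 198 and 247, and 202 and 154 CPM. Rps6 differed by 0.38 and −0.42 in the Sox7 sets and by 0.21, 0.45 and −0.07 in the Sox17 sets. Rpl22 and Rps14 were higher in all 3 Sox17 sets and lower in Sox7 set 2, and Rpl10, which joins the large subunit late, likewise.

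Genes of the same machinery were read from lists, none of whose members passed over all genes with edgeR in either arm. Among 7 further ribosomal protein and fusion genes, all 7 had a fold change above 0 in both arms, with medians of 0.36 (Sox7) and 0.20 (Sox17). Fau, the fusion gene of Rps30, was at 0.88 (SE 0.55) and 0.84 (SE 0.45), and its differences were above 0 in each of the 5 sets. Gnb2l1, which encodes the small subunit scaffold Rack1, was at 0.64 and 0.44. Among 17 elongation and other TOP genes, 12 were above 0 in the Sox7 arm (median 0.14) and 13 in the Sox17 arm (median 0.20). Their medians per set were 0.40 and −0.17 in the Sox7 sets and 0.24, 0.45 and −0.24 in the Sox17 sets, the same signs as for the ribosomal protein genes. The elongation factor gene Eef1a1 differed by 0.54 and −0.17 in the Sox7 sets and by −0.29, 0.57 and −0.47 in the Sox17 sets.

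Of 25 initiation factor genes, 16 were above 0 in each arm, with medians of 0.16 and 0.21. Of 29 ribosome biogenesis genes, 23 were above 0 in the Sox7 arm (median 0.54) and 19 in the Sox17 arm (median 0.23), and their median in Sox7 set 2 was 0.49, unlike that of the ribosomal protein genes. The 77 mitochondrial ribosomal protein genes, which serve a separate ribosome, had medians of 0.37 (48 above 0) and 0.29 (53 above 0). In Sox7 set 2 their median was 0.49 as well, and in Sox17 sets 1, 2 and 3 it was 0.63, 0.22 and −0.04. Ribosome biogenesis genes were at 0.59, 0.25 and −0.19 in the same Sox17 sets. Both lists thus had the order of Sox17 sets seen for the cytosolic genes. The summed level of the mitochondrial genes was 1633 to 1878 CPM in Sox7 control and 2134 to 2244 in Sox7 ECKO. It was 1765 to 1946.5 CPM in Sox17 control and 1963 to 2500 in Sox17 ECKO. Growth control genes of the Myc and mTORC1 pathways had medians of 0.18 and 0.34, with 9 of 15 above 0 in each arm, and p53 response genes 0.16 and 0.14.

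**Figure D5:**
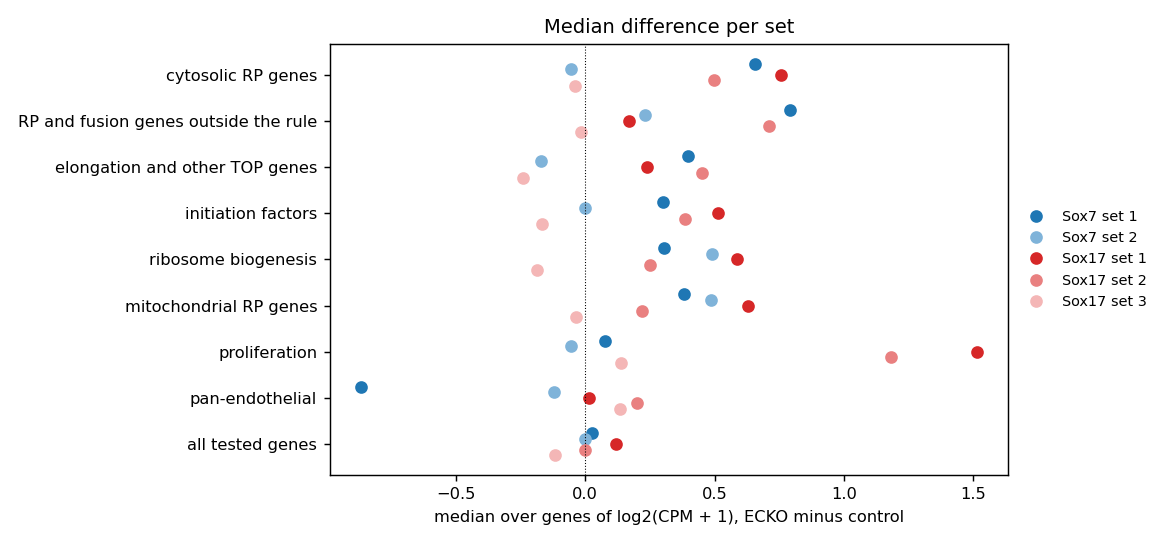
Median over the genes of each list of the log2(CPM + 1) difference, ECKO minus control, with a point for each set (RP, ribosomal protein). The cytosolic ribosomal protein genes and the elongation and other TOP genes have their lowest 2 medians in Sox7 set 2 and Sox17 set 3, while ribosome biogenesis and mitochondrial genes are at 0.49 in Sox7 set 2.

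Cell content and proliferation moved beside some of these values. Of 16 proliferation genes, 14 were above 0 in the Sox17 arm (median 0.81), with medians per set of 1.52, 1.18 and 0.14, and 6 in the Sox7 arm (median −0.10). Their summed level was 378 to 855 CPM in Sox17 control and 893 to 1113 in Sox17 ECKO, so these groups did not overlap. Nor did the sums of the mitochondrial ribosomal protein genes in either arm. In the Sox7 arm the sums of neuron and oligodendrocyte genes (higher in ECKO) and pan-endothelial genes (lower in ECKO) did not overlap either. Of 20 pan-endothelial genes, 18 were below 0 in the Sox7 arm (median −0.42) and 9 in the Sox17 arm (median 0.06). Per set, the pan-endothelial medians were −0.87 and −0.12 in Sox7 sets 1 and 2, and 0.01, 0.20 and 0.14 in Sox17 sets 1, 2 and 3. The larger drop was thus in the set of Sox7 ECKO 1, the library with high macrophage genes. All 10 pericyte and smooth muscle genes were below 0 in the fit of the Sox17 arm (median −0.98). Their medians per set were −1.33, −1.30 and 0.33, so the direction turned in set 3. Their summed level was 325 to 1336 CPM in control and 314 to 361 in ECKO, with 325 and 361 in set 3. All 16 macrophage genes were above 0 in the Sox7 arm (median 3.62; −0.92 in set 2) and 15 below 0 in the Sox17 arm (median −0.66). All 5 tested erythroid genes were below 0 in the Sox17 arm (median −2.22; −2.41, −1.91 and −0.68 in sets 1, 2 and 3). The summed level of the erythroid list was 2910, 310 and 126 CPM in Sox17 control and 430, 71.1 and 68.5 in ECKO, lower in ECKO of each set. All 6 neuron genes were above 0 in the fit of the Sox17 arm (median 1.37), with medians of 0.68, 0.20 and −0.24 in sets 1, 2 and 3. Their summed level was at most 50.6 CPM in that arm. All 5 tested neutrophil genes were below 0 (median −1.42), with medians of 0, 0 and −1.11 in sets 1, 2 and 3. The summed level of the neutrophil list was 25.5 CPM in Sox17 control 3 and at most 3.30 in the rest of that arm. The part of proliferation and of other cells in the ribosomal protein differences was not tested.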

How the data were processed

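Libraries were made from 500 ng of Trizol-extracted total RNA with a Lexogen QuantSeq kit, which reads 3′ tags, per the labels' protocols. The authors deposited raw read counts per gene symbol, whole numbers with no normalization, in a file per library. Bowtie2, edgeR and build mm10 are named per the submitters' processing notes; annotation, counting tool, strand setting and the handling of reads with several matches are not given in the sources used here. Of the symbols, those that only Sox17 files list (1183, all starting with Mir) were left out, and repeated rows of a symbol were summed. Groups and set numbers came from sample titles.

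The test was that of edgeR 4.0.16 under R 4.3.3 (TMM, filterByExpr, robust quasi-likelihood fit of all 10 libraries with a mean per group, 6 residual degrees of freedom), with Benjamini-Hochberg adjustment over 13040 genes and a threshold of 0.05. The filter removed 10198 genes. The standard error of a log2 fold change is its size divided by the square root of F. DESeq2 1.42.0, limma-voom 3.58.1, other scalings, a fit without filter, a replicate block and omission of each library were alternatives. The scripts were tested on simulated counts with less spread than these libraries have, so that test does not cover their noise. The common biological coefficient of variation was 0.989, which limits what a test of 2 or 3 libraries a group can call. The set numbers were taken to pair libraries, because the design text speaks of sets and libraries of a set share a code in 4 of the 5 sets; paired libraries deviated together with r = 0.193 (Sox7), 0.12, 0.0911 and 0.0896 (Sox17), over genes.

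The gene set, the lists and the comparisons were chosen with earlier results of these data known, so counts over the genes were set beside those of all genes and not tested. Named genes are the stalk genes and Rpsa, the 8 highest and 8 lowest tested by mean CPM, those that failed the filter, the 8 of smallest p with 1 direction in every set, the 5 farthest above and below the median of each arm, and a list of well-known members and paralogues. Rps16, Rps26 and others that appear in lists of counts, and the retrogene and pseudogene rows, were named after their values were seen. A few genes are not reported here by name, though counts and medians include them.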

Additional observations from a re-analysis of the deposited data

How the results depend on the processing

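No ribosomal protein gene was called under any of the alternatives run. Counts of called genes among all those tested, 0 in each comparison with edgeR, were 1 (Sox7), 6 (Sox17) and 3 (difference between arms) with the replicate block, 3, 29 and 14 with DESeq2, and 58, 30 and 58 without a filter. Leaving out 1 library gave 0 to 14 (Sox7), 0 to 1 (Sox17) and 0 to 9 (difference); the highest Sox7 count was without Sox7 ECKO 1. The replicate block changed no call of a ribosomal protein gene. A fit of 1 arm alone gives no difference between arms and was not run for it.

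Genes lower in both Sox7 sets were 3 with library totals, against 1 with TMM. Genes lower in every Sox17 set were 5 when sets 2 and 3 alone were used, against 1 with all 3 sets, a stricter criterion. That alternative was chosen after seeing the data. With retrogene and pseudogene rows added to their gene, also chosen later, 31 genes were higher in both Sox7 sets and 34 in all Sox17 sets, against 31 and 31. With only genes that share under 10% of their ends the medians were 0.30 (Sox7) and 0.45 (Sox17).

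Some named genes changed sign. With limma-voom Rpsa was at 0.0812 in the Sox17 arm and Rpl30 at 0.0346 in the Sox7 arm, and Rpl30 was at 0.0477 with the replicate block. With 1 library left out, the Sox17 fold changes ran from −0.48 to 0.16 for Rpl36, −1.16 to 0.22 for Rpl7a, −0.11 to 1.55 for Rps13 and −0.41 to 0.36 for Rpsa. The Sox7 fold changes ran from −0.67 to 0.49 for Rpl14, −0.61 to 0.70 for Rpl30, −4.49 to 5.51 for Rpl39l, −0.68 to 0.31 for Rps15 and −0.48 to 0.20 for Rps27l. Apart from the fits that leave out a library, the cause was not tested.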

Other observations

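Outside the ribosomal protein genes, the 10 genes whose pattern over the 10 libraries was nearest to their mean were Ldha, Pfkfb3, Hnrnpab, Ctdnep1, Clint1, Psmd14, Eif4b, Tapt1, Polr1d and Slc25a5. Nearness is the root mean square difference of log2(CPM + 1), centred per gene, over the 10 libraries. It was 0.157 for Ldha, which encodes the lactate dehydrogenase A chain, 0.181 for Pfkfb3, a glycolytic regulator of sprouting endothelium, and 0.211 for the initiation factor gene Eif4b. The nearest ribosomal protein gene was Rpl23 at 0.118. The median was 0.419 for the tested ribosomal protein genes themselves and 0.891 for all other tested genes. These 2 medians are not a like comparison, because the ribosomal protein genes make up the mean they are measured against. Their level was also higher, with a median of 152 CPM against 18.6 for all genes tested. No conclusion is drawn from their smaller distance. The mean profile was −0.57 in Sox17 control 1 and 0.49 in Sox17 ECKO 1, its lowest and highest points. It was 0.36 in Sox7 ECKO 1, 0.35 in Sox17 ECKO 2 and −0.30 in Sox7 control 1.

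Retrogene and pseudogene rows differed in their own way in Sox17 set 1. Rplp2-ps1 was at 2064 CPM in control and 1172 in ECKO there, Rpl14-ps1 at 576 and 102, and Rps15a-ps6 at 496 and 109, while the ECKO libraries of Sox17 set 2 were higher for all 3 rows, by 0.64, 0.20 and 0.74 on the log2(CPM + 1) scale. In Sox17 set 1 the named copies Rps19-ps3 and Rps27rt were higher in ECKO, by 2.23 and 1.54. Which rows belong to transcribed copies was not tested.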
